A study of Mus musculus with 4 samples.

Results

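Gene expression was compared between cells of high and of low aldehyde dehydrogenase (ALDH) activity taken from 4T1 tumours at zeitgeber time 0 (ZT0, the time at which the lights come on). The comparison rests on 2 of the 4 samples of the study, chosen by their labels, 1 array for the ALDH-high and 1 for the ALDH-low cells. The other 2 are the same fractions at ZT12, 12 hours later. 4T1 is a mouse mammary carcinoma line, which was implanted in BALB/C mice that received no treatment. Tumour cells were sorted with the ALDEFLUOR kit, and the RNA of each fraction was hybridised to a one-colour array. All 4 groups share the strain, the implanted line, the tumour as source tissue and the absence of a treatment. The labels give no age or sex, and the number of mice behind a fraction and the days since implantation are not given in the sources used here. No array has a replicate, so all differences below describe these 2 arrays, carry no test and have no error between tumours.

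ALDH enzymes oxidise aldehydes to acids. Those of the ALDH1A group make retinoic acid from retinal, the ligand of the nuclear receptors RAR and RXR. In the ALDEFLUOR reaction, ALDH turns a substrate that enters the cell into a charged fluorescent product that stays inside, and bright cells are sorted from dim ones. In mammary tumours the bright fraction is widely used to enrich cells with tumour-initiating capacity, which is the question a comparison of these fractions addresses. The dye reads enzyme activity in any living cell that takes it up, and blood and immune cells carry ALDH enzymes too.

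The fractions were labelled as 4T1 cells, and keratin genes of epithelial cells were well above background on both arrays. Neutrophil genes were well above background on both as well, with all 17 late granule genes and 20 of 21 receptors of mature neutrophils measured. The pan-leukocyte gene Ptprc, which encodes CD45, had a level of 4.10 on the ALDH-low and 7.19 on the ALDH-high array. These values go against a fraction of carcinoma cells alone. In RNA from sorted bulk cells, fewer cells of a type and less RNA per cell cannot be told apart.

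Levels are given as the log2 of the processed signal minus the log2 of the 75th percentile of the array, so that a level of 0 is the signal at that percentile. Where a gene has a pair of values, the first is its level on the ALDH-low array and the second its level on the ALDH-high array. The 75th percentile was 213.6 on the ALDH-low and 300.6 on the ALDH-high array, and 60.6% and 60.4% of 59305 non-control spots were well above background. The standard deviation between spots of one probe was 0.0456 and 0.0403 log2 units in the median over 300 probes with repeated spots, which is the error within an array. The ALDH-low array lay at position 1_1 of the slide and the ALDH-high array at position 1_2. The slope of the spike-in RNAs was 0.873 on the former and 0.956 on the latter, and at ZT0 the ALDH arm and the position cannot be told apart. At ZT12 the positions were the other way round (ALDH-high at 1_1, with a slope of 0.789, and ALDH-low at 1_2, with 0.944). Since each time was on a slide of its own, time and slide cannot be told apart either.

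Of 37074 features by gene name, 21151 were well above background on both ZT0 arrays. Of these, 4240 (20.0%) were at least 2-fold higher on the ALDH-high array and 6180 (29.2%) at least 2-fold lower, and these shares are the background for every list below. The median difference, ALDH-high minus ALDH-low, was -0.30 over all features, and the 5th and 95th percentiles were -2.34 and 2.33. Higher genes made up 40.7% of those past 2-fold. This split followed the scaling: with arrays aligned on their medians the median difference was 0.18 and the share of higher genes 62.9%, and with the percentile taken over probes detected on all 4 arrays they were -0.68 and 26.3%. Differences are therefore best read against the all-feature median. At least 4-fold differences were found in 1596 features in the higher and 1829 in the lower direction, and at least 8-fold differences in 387 and 377. A further 1530 features were well above background on the ALDH-high array alone and 1934 on the ALDH-low array alone.

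**Figure D1:**
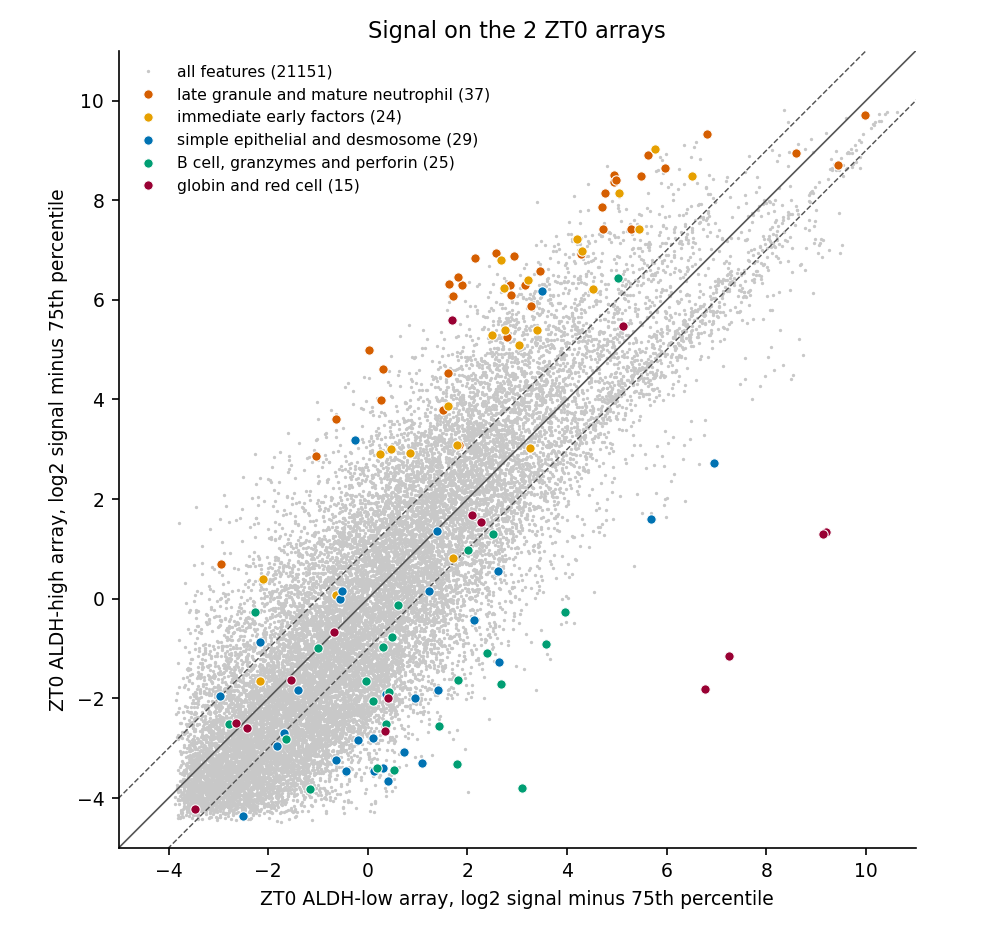
Level on the ZT0 ALDH-low array (x axis) against the ZT0 ALDH-high array (y axis), both as scaled log2 signal, for 21151 features well above background on both, with members of selected lists in colour. The solid line marks equal levels and the dashed lines a 2-fold difference; late granule, neutrophil receptor and immediate early genes lie mostly above the upper dashed line, epithelial genes mostly below the lower one, and 4 globin probes lie farthest below.

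The 4 genes with the lowest differences were globin genes, which red cells and their precursors express. Hba-a1, an alpha globin gene, had a level of 9.19 on the ALDH-low and 1.33 on the ALDH-high array, a difference of -7.85. Its near-identical copy Hba-a2 gave 9.14 and 1.30, and probes of the pair may read the RNA of both. For Hbb-bt, a beta globin gene whose probe lies at mm9 chr7:110961105-110961164, the levels were 7.24 and -1.15. Hbb-b2 was 380.4-fold lower. Hbb-b1 and Alas2, the first enzyme of haem synthesis in red cells, were not well above background on the ALDH-high array and were at least 378-fold and at least 128.5-fold lower. Such a bound, rounded here to at least 3 significant digits, sets the brighter array against the lowest signal called well above background, or the dim probe's own signal where that is higher, on the other. In the whole list of red cell genes, these included, 15 of 28 on the array were measured, with 6 lower, 1 higher and a median of -0.72, and a further 5 have a bound in the lower direction. The higher one, Nfe2, a factor of red cell and platelet precursors, had 1.68 and 5.59. Hemgn stood at 5.13 and 5.48, an order that turned under some settings.

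Next lowest were genes of B cell precursors, and genes of epithelium were also among the 15 lowest. Vpreb3 differed by -6.90, and Vpreb1, which belongs to the surrogate light chain of the pre-B cell receptor, differed by -5.11. Vpreb3 had a level of 3.09 on the ALDH-low array and -3.81 on the ALDH-high array. Krt14, a keratin of basal epithelial cells, had levels of 3.59 and -1.12, and Msln, which encodes the surface protein mesothelin, differed by -4.55. Gzmc, a granzyme of cytotoxic lymphocytes, had levels of 3.59 and -0.90. Tmem52b, Mrgprg, Snora74a, Opcml, Syn3 and Msmp completed the 15 lowest genes, with differences between -4.96 for Tmem52b and -4.41 for Msmp. Among genes well above background on the ALDH-low array alone, the largest bounds after the red cell genes were at least 52.5-fold for Pou2af1, a coactivator of B cells, and at least 22.1-fold for Serpinb5, the epithelial serpin maspin. Slc4a1, the anion exchanger of the red cell membrane, was at least 21.6-fold lower and Slc22a12, a urate transporter, at least 20.2-fold lower.

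At the other end, several of the 15 highest genes are known from neutrophils. Ly6g, the surface antigen by which mouse neutrophils are sorted, had a level of 0.02 on the ALDH-low and 4.99 on the ALDH-high array. Cxcr2, a receptor for neutrophil-attracting chemokines, had levels of 2.14 and 6.84. Ggt1, a glutamyltransferase that breaks down extracellular glutathione, showed the highest difference, 5.30, with levels of -3.45 and 1.85. Steap4, a metalloreductase, and Scrg1 both differed by 4.98 and Rnf144a, a ubiquitin ligase, by 4.95. Of the Mas-related receptors, Mrgpra5, Mrgpra6, Mrgpra2a and Mrgpra2b differed by 4.73, 4.71, 4.68 and 4.65. These receptors form a family of similar genes, so that their probes may not read 4 separate transcripts. Mtus1, Chil5, Plin5 (a lipid droplet coat protein), Klra17 (a receptor of the Ly49 family) and Dfna5 (gasdermin E) lay between 4.72 and 4.64. The 2 probes of Dfna5 were far apart, at 4.64 and 0.32. Nlrp12, a regulator of inflammation, was well above background on the ALDH-high array alone and at least 37.1-fold higher, followed by Slco4c1 at 18.1-fold, the muscarinic receptor gene Chrm3 at 17.6-fold, Pdzd3 at 15.2-fold, Capns2 at 14.8-fold and Ppp1r42 at 13.6-fold, each as a lower bound.

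**Figure D2:**
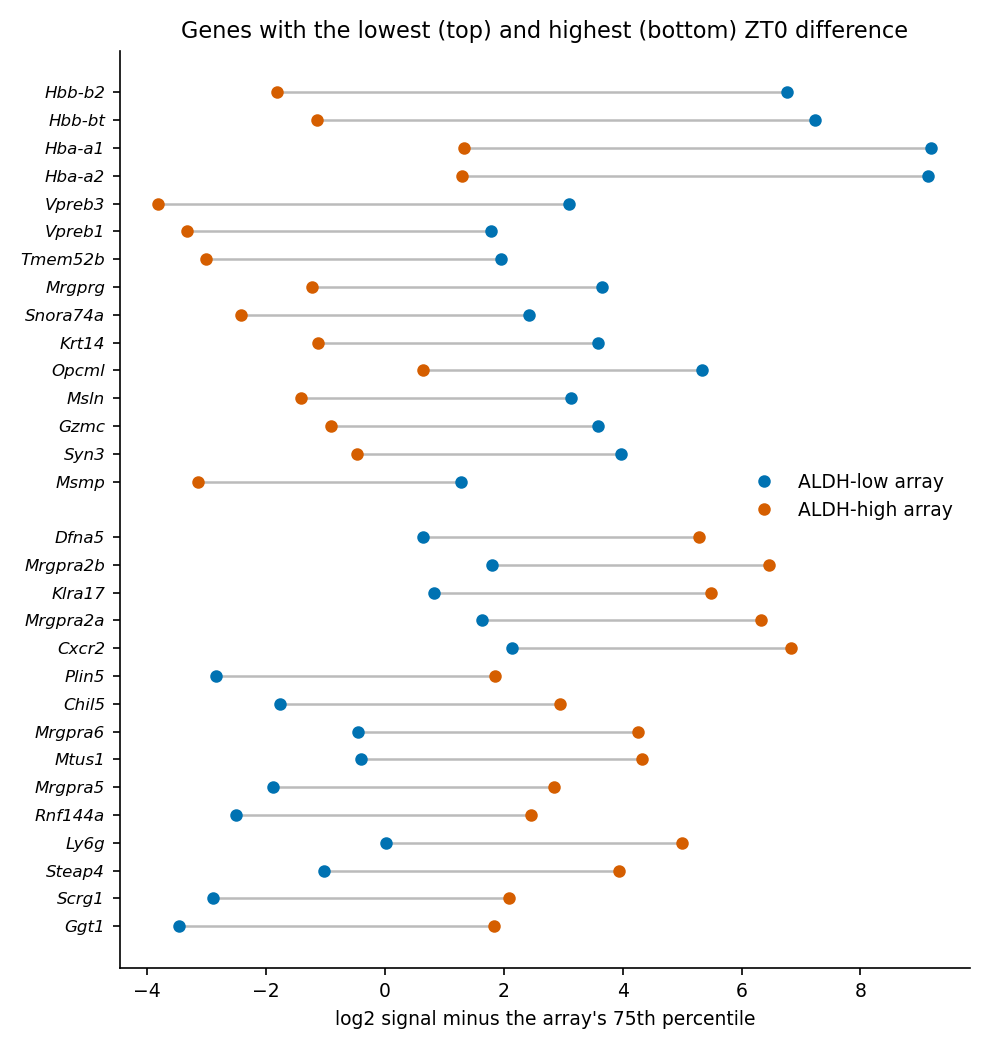
Level on the ZT0 ALDH-low (blue) and ALDH-high (orange) array, as scaled log2 signal (x axis), for the 15 genes with the lowest and the 15 with the highest difference; 1 array a side, so there is no error bar. The grey line of each gene is its difference, which is longest for the globin genes Hbb-b2, Hbb-bt, Hba-a1 and Hba-a2.

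Some of the lowest values came from probes that share a sequence rather than a gene family, a pattern noticed after the values were seen. The probes of Mrgprg, Opcml and Syn3 (a receptor, a neural adhesion molecule and a synapsin) hold GA repeated at least 3 times in a row. Stretches of 30 bases of these probes and of the probes of Cabp5, Phyhipl and Shc4, which hold longer runs, are given 5′ to 3′ as on the array (mm9, strand from the array annotation), with the longest run in capitals, because they let the shared letters be seen. Among these 6 the longer runs did not have the lower differences. Mrgprg, Opcml and Syn3 were taken for their low differences, however, so this order cannot show how differences go with run length. Medians by run length over all measured probes with such runs are given below.
Mrgprg, chr7:150949681-150949710, minus strand: GAGAGAagagagagctaagcttccaaagta
Opcml, chr9:28623143-28623172, plus strand: aGAGAGAGAGAttcattcatctcccaacct
Syn3, chr10:85586568-85586597, minus strand: aaagagagagaaaagGAGAGAGAGAGAcag
Cabp5, chr7:13993851-13993880, plus strand: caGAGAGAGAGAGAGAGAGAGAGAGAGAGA
Phyhipl, chr10:70030612-70030641, minus strand: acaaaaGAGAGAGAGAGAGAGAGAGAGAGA
Shc4, chr2:125453931-125453960, minus strand: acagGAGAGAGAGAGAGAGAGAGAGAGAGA

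The probe of Cabp5 had a level of 8.74 on the ALDH-low and 4.89 on the ALDH-high array, that of Phyhipl 8.54 and 4.49, and that of Shc4 8.5 and 4.41. At ZT12 the same 3 probes were higher on the ALDH-high array, by 4.94, 5.08 and 5.0. The search covered GAGAGAGA as printed on the probe, and apart from it its reverse complement TCTCTCTC. Of all probes, 0.286% (162) hold GAGAGAGA. Of 119 measured, 86 (72.3%) were at least 2-fold lower and 7 higher, with a median of -2.36, beside 26.6% lower and a median of -0.18 over all 30252 measured probes. The median was -0.44 with a longest run of 3 repeats, -1.49 with 4, -3.63 with 5 or 6 and -3.58 with 7 or more, and all 15 probes of the last class were lower. Probes with TCTCTCTC had a median of 0.53 (103 probes, 19 lower). At ZT12 the 114 GAGAGAGA probes that could be measured had a median of 3.93. On both slides these probes were thus brighter on the array at position 1_1, and whether the repeat, the position or the spike-in slope sets these values was not tested. Of the 377 features at least 8-fold lower, 47 rest on a probe with GAGAGAGA, beside 95 of all 21151 features of the comparison. Among the genes described below, Itga1 and Elovl6 rest on a probe with at least 4 repeats.

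**Figure D3:**
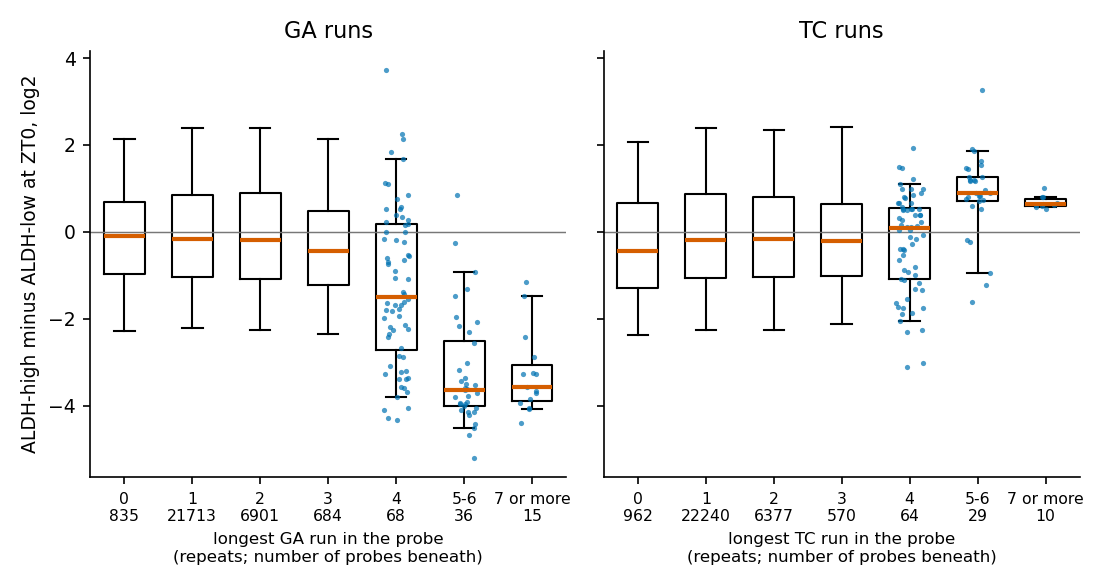
Difference between the ZT0 arrays, ALDH-high minus ALDH-low in log2 units (y axis), for 30252 measured probes grouped by the longest run of GA (left) or TC (right) in the probe, with the number of probes under each class. Boxes give quartiles, the orange line the median and whiskers the 5th and 95th percentiles, with single probes as points in classes of at most 100; the GA median goes from -0.17 at 1 repeat to -3.63 at 5 or 6.

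Transcripts of the ALDH1 family, the enzymes most often named for the ALDEFLUOR reaction, were mostly lower on the ALDH-high array. Of 7 genes on the array 5 were measured, 4 were lower and 1 higher, with a median of -1.61. Aldh1a1 had a level of -0.73 on the ALDH-low and -2.38 on the ALDH-high array, and Aldh1l1, a folate enzyme of the family, had -0.74 and -2.90. Aldh1a2, a retinal dehydrogenase like Aldh1a1, went the other way with -3.80 and -1.30. Aldh1a3 and Aldh1a7 were not well above background on either array. The other ALDH genes had a median of 0.82, with 6 of 12 higher and 3 lower. Aldh3b1, which acts on lipid aldehydes, had levels of 3.31 and 5.96. Aldh2, the mitochondrial enzyme that clears acetaldehyde, had 3.70 and 5.90. Aldh3a1 differed by 1.04 and Aldh4a1, of proline breakdown, by 2.09, while Aldh7a1, of lysine breakdown, differed by -1.92. Genes of the family thus lay on both sides of equal levels.

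Among retinoid handling genes 13 of 19 were measured, with 1 higher and 4 lower. The higher one was Rara, a retinoic acid receptor, at 3.51 and 6.19. Stra6, which imports retinol, had 1.68 and -1.5. Crabp1, which binds retinoic acid, differed by -1.76 by its brightest probe and by -0.27 by the other. ABC transporters, some of which export dyes, had 5 of 23 members higher and 9 lower. Abcb1b, which encodes a P-glycoprotein, had levels of 0.22 and -2.37, its relative Abcb1a differed by -1.88 and Abcb4 by -2.58, whereas Abca7 differed by 2.38.

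Epithelial genes were lower on the ALDH-high array as a group. Simple epithelial keratin and adhesion genes had a median of -2.07, with 14 of 21 measured members lower and 4 higher. Krt8 and Krt18, partner keratins of simple epithelium, had levels of 5.68 and 6.94 on the ALDH-low array and of 1.61 and 2.73 on the ALDH-high array. The surface adhesion molecule gene Epcam had 0.11 and -3.45, and the tight junction gene Cldn3 had 1.09 and -3.31. Krt19 differed by -4.07 and Cldn4 was at least 8.54-fold lower. Cdh1, which encodes E-cadherin, differed far less than these, by -1.08. Higher members included Cd24a with 3.49 and 6.18, Cldn1 and Muc1. Cd24a is also expressed on blood cells. The log2 of the summed signal of all members on the array, dim ones included, went from 7.75 to 6.65.

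Basal and squamous genes had no higher member among 12, 8 lower ones and a median of -1.16. Itgb4, the laminin-binding integrin subunit of hemidesmosomes, had 3.77 on the ALDH-low and 0.41 on the ALDH-high array. Ly6d differed by -3.07. The brightest probe of Itga6, partner of Itgb4, differed by -2.83, but its 4 probes ranged from -3.08 to 0.64. Desmosomes, the spot junctions of epithelia, gave the lowest median of all lists, -2.77, with 7 of 8 measured genes lower. Perp, a p53 target that sits in desmosomes, had 2.63 and -1.28, Ppl (periplakin) 0.30 and -3.40, and Pkp3 (plakophilin) -0.45 and -3.45. Pkp2 was at least 14.0-fold lower, and Dsc3 stood at -0.52 and 0.16.

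Of 12 epithelial transcription factors 7 were lower and 2 higher. Gata3, a factor of luminal mammary cells, had 3.35 and 0.02, and Sox9 had 0.14 and -3.74. Tfap2a differed by -3.35 and Pitx1 by -3.23. Klf5 had -0.51 and 1.43 and Grhl1 -3.57 and -1.40, both higher on the ALDH-high array.

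Genes of the mesenchymal transition went both ways, with 3 of 16 higher and 8 lower. Zeb1 and Snai1, repressors of E-cadherin, were higher: Zeb1 had -3.02 on the ALDH-low and -0.05 on the ALDH-high array, Snai1 0.09 and 2.05. Twist1 was at least 4.97-fold lower, Foxc2 differed by -3.14 and Tgfb3 by -2.83. S100a4, a calcium-binding protein of motile cells, had 8.11 and 5.80, while Vim, the intermediate filament vimentin, differed by -0.27. Among 14 measured mammary stem cell markers 3 were higher and 7 lower. Cd44 had 4.17 and 6.23, and Thy1 2.70 and -0.60, Lgr5 differed by -2.60 and Procr by -1.28. Prom1 was at least 2.58-fold higher. Kit differed by 2.69 by its brightest probe, with 3 probes between -1.13 and 2.69.

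Of 15 YAP targets, genes driven by the Hippo pathway effector in spread and growing epithelial cells, 9 were lower and 4 higher, with a median of -2.01. Ankrd1 had 0.14 and -4.10, Cyr61 0.44 and -2.18, and Wwc1 -0.86 and -3.67. F3, the tissue factor that starts coagulation, had 0.23 and 3.32 and Gadd45b 3.42 and 5.93, and both are also induced in myeloid cells.

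Receptor kinases of epithelium, which pass on growth signals, were mostly lower: 11 of 17 were lower and 2 higher, with a median of -1.59. Erbb2, the HER2 receptor, had 0.37 on the ALDH-low and -3.97 on the ALDH-high array, and Mst1r, the RON receptor, 0.37 and -3.86. Ephb4 and Epha2, ephrin receptors, differed by -3.61 and -3.14, but the 3 probes of Ephb4 ranged from -3.61 to -0.07. Igf1r (1.5 and 3.81) and Insr (-2.74 and -1.08), the insulin-like growth factor and insulin receptors, were the 2 higher ones. Other genes of that axis included H19, an imprinted noncoding RNA, with 4.52 and 1.36, Irs1, an adaptor of both receptors, with -2.74 as difference, and Igfbp6, a binding protein, with 3.17 and 6.72. In all, 4 of 15 genes of the axis were higher and 7 lower.

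Wnt ligands were dim, and 6 of 19 were not well above background on either array. Of 9 measured, 5 were lower and 1 higher. Wnt7b had 2.72 and -0.42, and Wnt10a was at least 10.5-fold lower, with a level of -1.01 on the ALDH-low array. Wnt6 and Wnt8b differed by -2.04 and -1.94, and Wnt5b by 1.92 with its 2 probes on opposite sides of 0. Among the receptors, 6 of 9 were lower and 1 higher, with Fzd2 at -0.46 and -3.53, Ryk at 1.42 and -0.66 and the co-receptor Lrp6 at 0.29 and -1.0. Fzd5 was the higher one, at -3.76 and -2.50, and its 2 probes differed by 1.26 and 0.11. Of targets and inhibitors 6 of 12 were lower: Ccnd1, which encodes cyclin D1, had 3.43 and 0.17, Lef1, a partner of beta-catenin that lymphocytes also express, 1.13 and -2.24, and Apcdd1, an inhibitor, -0.84 and -4.25. Ctnnb1, beta-catenin itself, was 2.78-fold higher.

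Notch genes had 3 of 13 members higher and 4 lower. Notch2 had 1.61 and 4.25 and the coactivator Maml1 0.52 and 2.78. Notch1 differed by -2.91 by its brightest probe and by 0.87 by the other. The ligand Dll1 was at least 6.63-fold lower. In the Hedgehog list 6 of 9 were lower and 1 higher. Smo, the signal transducer, had 2.0 and -0.90, Gli3, a transcription factor of the pathway, -0.62 and -3.92, and the ligand Dhh differed by -2.75. The list of BMP and TGF-beta genes had 5 of 19 higher and 6 lower. Smad6, an inhibitory Smad, had -2.84 and -0.06, Id1, a target of BMP signals, 1.33 and 3.15, and the ligand Bmp7 0.62 and -3.11.

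Integrin and laminin genes had 18 of 22 members lower and 1 higher, with a median of -2.18. Lama3, which encodes a laminin chain of epithelial basement membrane, was at least 9.56-fold lower. Itga3, a laminin receptor, had 2.34 and -1.57. Itga1 had 0.12 and -3.48 by a probe with a GA run. The higher one was Itga4, an integrin of leukocytes, at 1.0 and 3.34, and its 2 probes differed by 2.33 and 0.12.

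Of 15 collagens 9 were lower and 0 higher. Col18a1, of basement membranes, had 4.10 and 0.51, Col6a1 3.15 and 0.23 and Col8a1 2.96 and 0.03. Matrix proteases went both ways. Mmp9 and Mmp25, proteases of neutrophils, had 2.86 and -2.17 on the ALDH-low array and 6.29 and 2.43 on the ALDH-high array. Mmp12, of macrophages, had 2.94 and -0.28, Mmp11 0.30 and -2.72 and Mmp3 3.44 and 0.78. In all 4 of 18 were higher and 10 lower. Fibroblast and pericyte genes had 3 of 15 higher and 6 lower: Fbln2 had 2.74 and -0.27 and Postn, a matrix protein, differed by -2.62, while Pi16 had 3.82 and 7.13 and Fap -1.75 and 0.15. Of the 22 endothelial genes 10 were measured, with 7 lower and 1 higher. Flt1, a VEGF receptor, had 1.65 and -0.78 and Eng, endoglin, -0.39 and -2.43. Erg, an endothelial transcription factor, was the higher one with -2.80 and -1.31, Esam was at least 2.06-fold higher and Pecam1, which encodes CD31, differed by 0.54.

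Lists of neutrophil genes, grouped by the stage at which they are made, had different medians. Neutrophils fill their primary granules early in marrow development, then secondary and tertiary granules, and put out chemokine and formyl peptide receptors when mature. Late granule genes had 15 of 17 members higher and 0 lower, with a median of 3.43, and the log2 of their summed signal went from 10.80 to 12.15. Ltf, which encodes lactoferrin, had a level of 4.94 on the ALDH-low and 8.5 on the ALDH-high array. Mmp8, neutrophil collagenase, had 2.58 and 6.95, and Cd177, a surface protein of neutrophils, 0.30 and 4.61. Camp, the cathelicidin peptide, had 6.81 and 9.32, and Chil1 1.89 and 6.30. The pair S100a8 and S100a9, which form calprotectin, were the members under 2-fold: S100a8 had 8.60 and 8.95 and S100a9 9.97 and 9.71, the latter in an order that turned under some settings.

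Receptors of mature neutrophils had 19 of 20 measured members higher and 0 lower, with a median of 3.17. The summed level of all members on the array was 9.82 and 11.19. Fpr1 and Fpr2, the formyl peptide receptors, had 1.71 and 4.77 on the ALDH-low array and 6.07 and 8.15 on the ALDH-high array. Cxcr1 had -0.64 and 3.61. Csf3r, the receptor for G-CSF, was the exception with 9.44 and 8.71. No spot was saturated on either array. Early granule genes did not follow: 3 of 9 were higher and 2 lower, with a median of 0.01. Mpo (myeloperoxidase) had 5.32 and 3.55, Ctsg (cathepsin G) 3.54 and 1.98 and Elane (neutrophil elastase) 2.35 and 1.41. Cebpe, the factor that drives secondary granule genes, had 2.86 and 5.49. The other higher members of the early list, Serpinb1a and Fcnb, differed by 2.88 and 1.28.

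Pan-leukocyte genes had 22 of 24 higher and 1 lower, with a median of 2.13. Spi1, the myeloid factor PU.1, had 0.45 on the ALDH-low and 3.37 on the ALDH-high array, Itgal 1.27 and 4.30 and Rac2, a small GTPase of blood cells, 4.37 and 7.28. The 5 probes of Ptprc ranged from -0.27 to 3.29. Itgam, which encodes CD11b, was the lower one by its brightest probe, with 7.93 and 6.71, while its other probe differed by 1.51.

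Macrophage genes were lower on the ALDH-high array. Of 23 measured members 15 were lower and 1 higher, with a median of -1.87. C1qa and C1qc, chains of the complement component made by tissue macrophages, had 4.57 and 5.57 on the ALDH-low array and 1.77 and 2.90 on the ALDH-high array. Folr2 had 0.82 and -1.82 and Ms4a7 2.90 and 0.24. Nos2, the inducible nitric oxide synthase, had 2.31 and 4.11. Csf1r, the receptor for the macrophage growth factor, differed by 0.61 and by -0.24 with its 2 probes. MHC class II genes, of antigen-presenting cells, had 11 of 19 lower and 0 higher. Cd74, the invariant chain, had 6.40 and 4.63 and H2-Ab1 6.87 and 5.29. Mast cell and basophil genes had 2 of 12 higher and 0 lower. Hdc, the histamine enzyme, which the neutrophil list also holds, had 4.99 and 8.42, whereas Mcpt1, a mast cell protease, and Prg2, a granule protein of eosinophils, were at least 6.38-fold and 6.34-fold lower.

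Lymphocyte genes were lower. T cell and NK cell genes had 16 of 22 lower and 2 higher, with a median of -1.77. Cd3g, of the T cell receptor complex, had 0.51 on the ALDH-low and -2.83 on the ALDH-high array, the kinase Lck had 2.16 and -1.23 and the interleukin receptor subunit Il2rb 1.77 and -1.69. Ncr1 and Klrb1c, receptors of NK cells, were at least 7.94-fold and 6.41-fold lower. Cd3d went the other way with 1.81 and 3.71. Cd4 differed by 1.11 and by -1.31 with its 2 probes, so that its direction turned when probes were averaged.

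Granzymes and perforin, which kill target cells, had 9 of 10 measured genes lower and a median of -2.51. The summed level of all members on the array was 5.43 and 2.17. Gzma had 3.95 and -0.27, Gzmb 1.82 and -1.63 and Gzme 2.39 and -1.09. Gzmd was at least 16.2-fold lower, and Gzmm was the 1 higher gene, at 2.0. B cell genes had 11 of 15 lower and 1 higher, with a median of -2.30. Cd79b, of the B cell receptor, had 2.68 and -1.71, and Igll1, which pairs with the Vpreb1 protein, was at least 16.5-fold lower. The higher one was Xbp1, a secretory stress factor that many cells express, at 5.03 and 6.44. Among immune checkpoint genes 8 of 16 were lower and 4 higher. Pdcd1, which encodes PD-1, had 0.45 and -2.84 and Icos -0.22 and -2.91. A checkpoint ligand gene that the array names 4632428N05Rik had 2.30 and 5.41.

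Platelet genes had 3 of 15 higher and 2 lower. Pf4, a platelet chemokine that macrophages can also make, had 4.80 and 2.01. Clec1b had -3.34 and 0.49 and Selp, the adhesion protein P-selectin, -0.69 and 0.97. Gp49a, which the list holds but which is not particular to platelets, had 3.14 and 6.64.

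**Figure D4:**
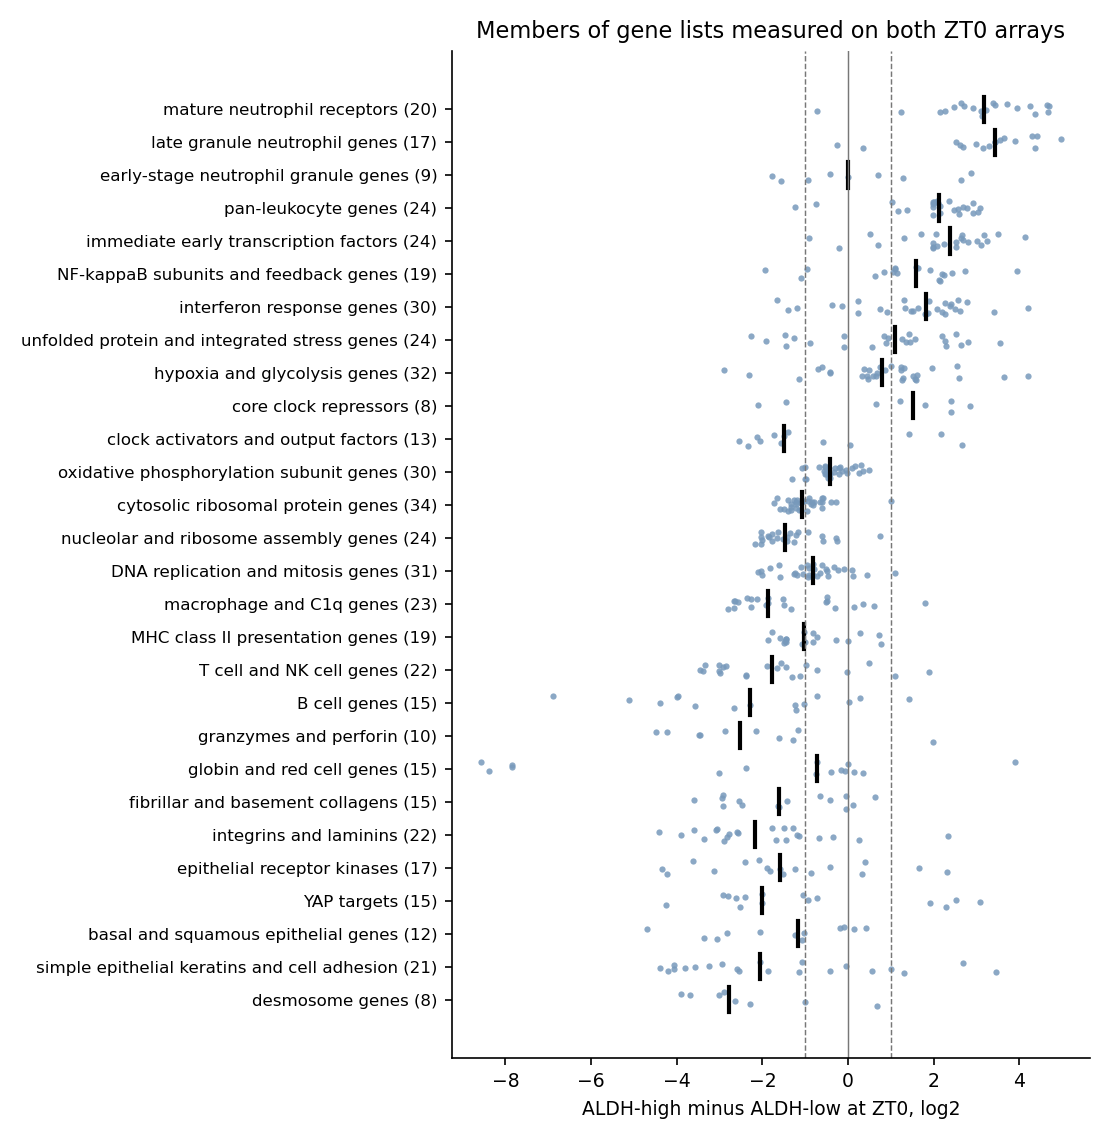
Difference between the ZT0 arrays, ALDH-high minus ALDH-low in log2 units (x axis), for measured members of 28 of the 60 lists, with the number of members in brackets. Each point is a gene, the black bar the median of the list, and dashed lines mark 2-fold; medians range from 3.43 for late granule genes to -2.77 for desmosome genes, and points of 1 list are not replicates.

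Immediate early genes, which cells transcribe within minutes of a stimulus, were higher on the ALDH-high array. Of 24 measured factors 20 were higher and 0 lower, with a median of 2.38. Egr1 had a level of 2.67 on the ALDH-low and 6.8 on the ALDH-high array. Fos and Junb, subunits of the factor AP-1, had 4.2 and 5.76 on the ALDH-low array and 7.22 and 9.02 on the ALDH-high array. Btg2 had 2.74 and 6.24 and Klf2 3.22 and 6.40. Members outside this pattern were Nr4a2 with 1.71 and 0.81 and Klf4 with 3.25 and 3.03, whose sign turned under some settings. The neutrophil and pan-leukocyte lists moved with this one, as given above, and their part in these values was not tested.

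Promoters of these genes were looked up in the RefSeq sequences of build GRCm38.p6 (250 bases before to 50 after the start), where 20 of 25 had an entry. The serum response element, named CArG, lay in 1 of the 20 and in 1.63% of 32851 mouse promoters, and the cyclic AMP response element, TGACGTCA, in 2 of the 20 and in 1.79%, on either strand. Windows of 60 bases are shown for the genes with a match because they let the motif be seen in its place, with the motif in capitals. A match is no sign of binding.
Egr2 (CArG), chr10:67537469-67537528, plus strand: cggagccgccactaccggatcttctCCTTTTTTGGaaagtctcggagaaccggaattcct
Btg2 (TGACGTCA), chr1:134079288-134079347, minus strand: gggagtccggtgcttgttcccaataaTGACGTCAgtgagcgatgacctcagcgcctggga
Maff (TGACGTCA), chr15:79347460-79347519, plus strand: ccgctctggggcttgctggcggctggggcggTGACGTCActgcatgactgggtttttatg
Egr2 differed by 2.25, Btg2 by 3.50 and Maff by 2.07 between the arrays.

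Feedback genes that end such a response split. Of 19 in the list of MAPK and mRNA decay regulators 8 were higher and 5 lower. Dusp1, a MAPK phosphatase, had 4.27 and 7.78, Zfp36, which destabilises cytokine mRNA, 3.47 and 7.19, and Socs3 5.03 and 7.85. Spry1 had 1.92 and -0.83 and Dusp4 0.39 and -2.12, which are feedback genes of receptor kinase signals. NF-kappaB genes had 14 of 19 higher and 2 lower, with Nfkbiz at 1.09 and 5.04 and Nfkbid at 2.06 and 4.79. The deubiquitinase gene Cyld had -0.36 and 2.08, and the differences of its 3 probes ranged from 0.40 to 2.43.

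Inflammatory cytokines had 10 of 19 higher and 4 lower. Il1b had 5.91 on the ALDH-low and 8.80 on the ALDH-high array, Il1f9, an interleukin 1 relative, -1.0 and 3.61, Osm, oncostatin M, 4.02 and 7.32 and Cxcl2, a neutrophil attractant, 2.98 and 5.72. Csf3, which encodes the neutrophil growth factor G-CSF, had 0.54 and -2.35, opposite to the neutrophil genes it stimulates. CC chemokines, which draw monocytes and lymphocytes, had 2 of 14 higher and 7 lower: Ccl12 had 3.49 and 0.37, Ccl8 2.18 and -1.01 and Ccl5 3.77 and 1.63, while Ccl3 had 3.81 and 5.94 and Ccl4 3.72 and 5.48.

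Interferon response genes had 21 of 30 higher and 3 lower, with a median of 1.82. Oas3 had -1.59 and 2.61 and Oas2 2.85 and 6.25, sensors of double-stranded RNA. Ifitm1 had 5.82 and 8.61 and Isg15 5.26 and 7.53. Not all members took part: Mx1, an antiviral GTPase, had 0.19 and -0.19, Cxcl10 2.21 and 2.46 and Cxcl9, which interferon gamma induces, -0.76 and -2.41.

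Heat shock genes had 6 of 23 higher and 7 lower. Hspa1a had 7.64 and 8.88, Dnajb1 5.86 and 7.36 and Dnaja1 5.07 and 7.13, while the mitochondrial chaperone Hspd1 had 3.86 and 2.21 and Hspb8 0.06 and -3.27. Among unfolded protein and integrated stress genes 12 of 24 were higher and 5 lower. Ppp1r15a, which restores translation after stress, had 4.13 and 6.78, Sesn2 1.01 and 3.82 and Dnajb9 0.86 and 4.42. Lower members included Pdia4 at 0.94 and -1.33 and Sdf2l1 at 1.27 and -0.65.

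Of 32 hypoxia and glycolysis genes 14 were higher and 3 lower, with a median of 0.80. Slc2a3, a high-affinity glucose transporter, had 1.60 on the ALDH-low and 5.80 on the ALDH-high array. Pfkfb4 and Pfkfb3, which set the glycolytic rate, had 2.41 and 3.01 on the ALDH-low array and 6.06 and 5.55 on the ALDH-high array. Slc16a3, which exports lactate, had 4.70 and 7.29. Some enzymes of the pathway itself, picked after their values were seen, lay closer: Gapdh had 8.62 and 8.94, Ldha 7.84 and 8.27 and Pgk1 7.79 and 8.16. Car9, a carbonic anhydrase of hypoxic carcinoma cells, had 2.85 and -0.04.

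Oxidative phosphorylation genes had 0 of 30 higher and 4 lower, all within 1.30 of 0, with a median of -0.43 whose sign turned under 1 or more scalings. In iron handling 5 of 19 were higher and 6 lower. Slc40a1, the iron exporter ferroportin, had 0.46 and 4.88, and Lcn2, which binds bacterial iron carriers and belongs to the late granule list too, 5.62 and 8.91. Metalloreductases of the Steap family split, with Steap4 at -1.03 and 3.95, Steap1 at 0.45 and -3.68 and Steap2 at -0.25 and -4.19. Oxidant defence genes went both ways (10 of 29 higher, 9 lower): Nfe2l2, which encodes NRF2, had 2.53 and 5.03 and its target Slc7a11 -1.24 and 1.19, while Prdx2, a peroxidase abundant in red cells, had 4.31 and 1.60. Fat genes had 7 of 26 higher and 10 lower. Dgat2 and Dgat1, which make triglyceride, had 2.15 and 0.08 on the ALDH-low array and 5.88 and 2.98 on the ALDH-high array, whereas the fatty acid synthase gene Fasn had 3.99 and 1.58 and Elovl6, by a probe with a GA run, 2.49 and -1.0. Cholesterol genes had 3 of 24 higher and 1 lower.

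Genes of ribosome production were lower together by modest amounts. Cytosolic ribosomal protein genes had 0 of 34 past 2-fold higher and 19 lower, with a median of -1.08. Rpl12 had 7.29 and 5.55 and Rpl10a 7.68 and 6.09, while Rps9 had 7.57 and 8.57. Nucleolar genes had 18 of 24 lower and 0 higher, with a median of -1.47: Npm1, a nucleolar chaperone, had 5.32 and 3.29, and Gar1, of the pseudouridine machinery, 2.71 and 0.55. Proteasome genes had 3 of 30 lower and 0 higher. DNA replication and mitosis genes had 11 of 31 lower and 1 higher. Mcm2 and Mcm6, of the replication helicase, had 0.28 and 3.97 on the ALDH-low array and -1.75 and 1.86 on the ALDH-high array, and Tk1 2.02 and 0.02. Mki67, the proliferation antigen, differed by -0.10 and Top2a, of mitotic chromosomes, by -0.51. Histone genes had 6 of 23 higher and 2 lower, with Hist1h2bc at 2.62 and 5.24 and Hist1h1c at 2.32 and 4.77, and probes of this family may not read single copies.

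Clock genes of the negative limb differed from those of the positive limb. In the clock, BMAL1 (Arntl) and CLOCK drive Per and Cry genes, whose proteins repress them, and REV-ERB and ROR factors set the level of Arntl. Of 8 measured repressors 5 were higher and 2 lower, with a median of 1.51. Per1 had a level of 1.99 on the ALDH-low and 4.85 on the ALDH-high array, Per2 -1.26 and 1.14, Ciart -2.58 and -0.17 and Cry1 -2.94 and -1.15. Per3 had -0.31 and -1.75 and Nr1d2, a REV-ERB gene, -0.65 and -2.75. Activators and output factors had 8 of 13 lower and 3 higher, with a median of -1.5. Arntl had -1.40 and -2.96, Clock 0.44 and -1.06 and Rora 1.46 and -0.88. Nfil3, a repressor of D-box genes that is also induced by cytokines, had 3.82 and 6.48. Both arrays are of 1 time, so these values give levels in sorted fractions and no phase.

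Of 25 clock genes 20 had a RefSeq promoter, and 5 of them hold the E-box CACGTG, the site that BMAL1 and CLOCK bind, beside 7.15% of all promoters. Of the 5 higher genes with an entry 3 hold it. The windows are shown because genes with and without a higher level share the same letters, which are in capitals.
Per1, chr11:69098756-69098815, plus strand: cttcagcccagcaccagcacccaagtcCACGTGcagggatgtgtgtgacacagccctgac
Ciart, chr3:95882312-95882371, minus strand: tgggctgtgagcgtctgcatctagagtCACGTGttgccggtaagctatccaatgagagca
Cry1, chr10:85185082-85185141, minus strand: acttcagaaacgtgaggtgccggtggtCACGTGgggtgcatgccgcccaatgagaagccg
Tef, chr15:81802519-81802578, plus strand: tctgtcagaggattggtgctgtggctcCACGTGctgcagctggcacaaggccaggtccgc
Bhlhe41, chr6:145865541-145865600, minus strand: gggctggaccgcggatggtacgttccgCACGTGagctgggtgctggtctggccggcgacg
Per1, Ciart and Cry1 differed by 2.86, 2.41 and 1.80, whereas Tef, an output factor, differed by -1.73 and Bhlhe41 was at least 2.94-fold lower. The E-box is its own reverse complement, so 1 search covers both strands.

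Apoptosis genes had 10 of 22 members higher and 5 lower. Trp53inp1 and Gadd45a, which p53 induces, had 0.22 and 1.54 on the ALDH-low array and 3.68 and 4.67 on the ALDH-high array, and Pmaip1, the death protein NOXA, 1.57 and 4.14. Bcl2, which protects lymphocytes among other cells, had 0.88 and -1.65. Of 18 long noncoding RNAs 5 were higher and 6 lower. Neat1, the scaffold of paraspeckles, had 1.03 and 3.48 and Mir22hg 0.28 and 2.90. Meg3, an imprinted RNA, had 0.92 and -1.52 and Pvt1, the neighbour of Myc, 0.12 and -2.25.

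At ZT12, where the fractions lay at exchanged positions, the same comparison mostly had the other sign. Of 19290 features well above background on all 4 arrays, 84.8% had opposite signs at the 2 times. Of 4075 that were at least 2-fold higher at ZT0, 75.1% were at least 2-fold lower at ZT12, and of 5554 that were lower at ZT0, 60.9% were higher. Past 2-fold at both times in 1 direction were 16 higher and 32 lower features. The late granule median went from 3.43 to -2.34, and that of B cell genes was -2.30 and 4.32. The desmosome median was -2.77 and 0.02, and Krt8 differed by -4.07 and 0.07. Single epithelial genes did have opposite values, past 2-fold each way in 5 of 19 simple epithelial and 4 of 12 basal members measured on all 4 arrays. Krt14 differed by -4.70 and 1.46, Epcam by -3.57 and 1.08, Ly6d by -3.07 and 2.09 and Cd24a by 2.69 and -2.10. Such turns were common over all features, with the shares of 75.1% and 60.9% given above, so these counts are not particular to epithelial genes. The difference between times was not tested, and the part of time, slide, position and cell content in it cannot be told apart.

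**Figure D5:**
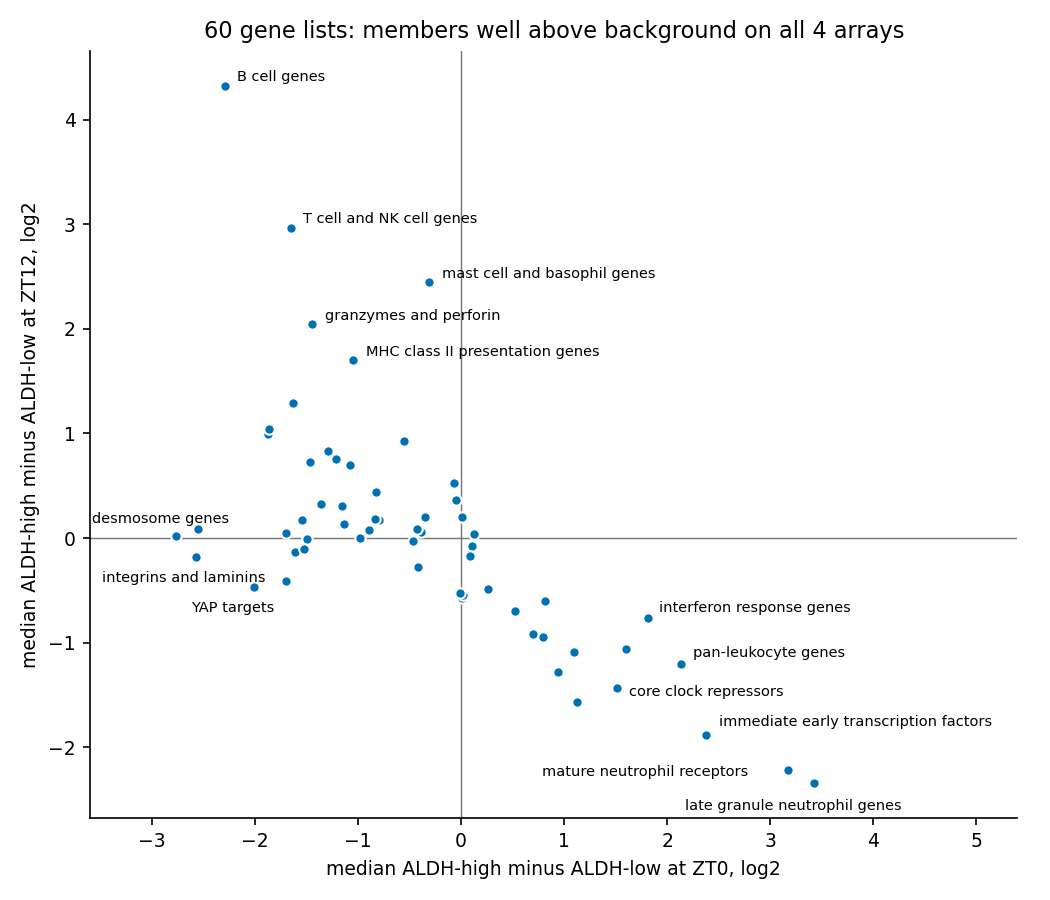
Median difference, ALDH-high minus ALDH-low in log2 units, at ZT0 (x axis) and at ZT12 (y axis) for 60 lists, over members well above background on all 4 arrays, with selected lists named. Points at the upper left are lymphocyte lists (B cell genes at -2.30 and 4.32) and those at the lower right neutrophil and immediate early lists, while epithelial and desmosome lists lie near 0 at ZT12.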

How the data were processed

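The 4 deposited scanner files and the deposited series table hold intensity values on a linear scale. Per the file headers, Agilent Feature Extraction 10.7.1.1 processed the authors' scans, with background subtracted and no scaling between arrays; the submitters' processing notes give 9.5.1.1, and which applies is not known. Each column of the deposited series table has a median of 28.3 and the same sorted values within 0.0517%, so the table is quantile normalized and not centred. Every column was matched to a sample by its name. RNA was labelled with Cy3, per the labels.

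Control and outlier spots were left out, replicate spots were averaged as log2 values, and the log2 of the 75th percentile of the array over non-control spots was subtracted. One probe, that with the highest mean on the 2 ZT0 arrays, stood for a gene name. A difference needed a probe well above background on both arrays, and a bound a probe well above it on 1. Past 2-fold is a log2 difference of at least 1. Among 6321 features with 2 or more measured probes, 459 of 3222 past 2-fold had probes of opposite sign.

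The members and the 60 lists (1236 of 1252 genes on the array, 6 through a synonym, 1063 measured) were chosen with earlier results of these data known. The genes named are the 15 highest and 15 lowest with probes of 1 sign and a plain symbol, the 6 largest bounds each way, up to 4 members of each list in the direction of its median, 2 the other way and 2 bounds, and 15 fixed genes. Some genes of this rule are not reported here. Other members were picked after their values were seen, to show the spread of a list or sequence class: Aldh1a7, Cabp5, Camp, Cdh1, Cldn1, Clock, Cxcl10, Cxcr1, Egr2, Elane, Fpr2, Gapdh, Isg15, Ldha, Ltf, Maff, Mki67, Muc1, Mx1, Pgk1, Phyhipl, S100a8, Shc4, Tef, Top2a and Vim. Of 14336 measured features with a RefSeq accession, 13525 were in the RefSeq table of GRCm38.p6, which gave names and promoters. Probe positions are those of mm9 in the files, and their place in exons or UTRs is not analysed here.

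Alternatives were other scalings, normexp (offset 50) with quantile normalization by limma 3.58.1 in R 4.3.3, division by the spike-in slope, other filters, the mean of the probes of a gene, the deposited table, a 4-fold threshold, and, added after seeing the data, the percentile over probes counted once and the removal of probes with GAGAGAGA. Python 3.11.15, pandas 2.3.3, numpy 2.4.6 and matplotlib 3.10.9 were used. The calculation was checked on simulated arrays.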

Additional observations from a re-analysis of the deposited data

Results flagged for a closer look

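For 14 lists the median difference between ALDH-high and ALDH-low arrays was at least 2-fold at both times but in opposite directions, over members well above background on all 4 arrays. The difference between the times was not tested, since each group has 1 array. At ZT0 these lists were higher on the ALDH-high array with a median of 3.43 for late granule neutrophil genes (17 members, -2.34 at ZT12), 3.17 for mature neutrophil receptors (20 members, -2.22), 2.38 for immediate early factors (24 members, -1.88), 2.13 for pan-leukocyte genes (24 members, -1.20), 1.60 for NF-kappaB genes (19 members, -1.06), 1.51 for clock repressors (8 members, -1.43), 1.13 for inflammatory cytokines (19 members, -1.56) and 1.1 for unfolded protein and integrated stress genes (24 members, -1.09). The others were lower at ZT0, with -2.30 for B cell genes (13 members, 4.32 at ZT12), -1.86 for endothelial genes (10 members, 1.04), -1.65 for T cell and NK cell genes (21 members, 2.97), -1.63 for ALDH1 genes (4 members, 1.29), -1.45 for granzymes and perforin (6 members, 2.04) and -1.05 for MHC class II genes (18 members, 1.70). In 18 of the 20 neutrophil receptor genes and 14 of the 17 late granule genes the gene itself was past 2-fold in opposite directions. Over all 19290 features well above background on all 4 arrays, 84.8% had opposite signs at the 2 times. Of features at least 2-fold higher at ZT0, 75.1% were at least 2-fold lower at ZT12, and of those lower, 60.9% were higher. A turn of sign is thus not particular to these lists.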

How the results depend on the processing

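The count of higher genes was 4240 and went to 1596 at 4-fold, and the other settings kept it within 1.5 times. The count of lower genes, 6180, went to 3708 with arrays aligned on their medians, 3529 with normexp and quantile normalization, 11201 without the filter on dim probes and 1829 at 4-fold. Of 60 list medians 33 were past 2-fold; 1 of these changed sign, that of inflammatory cytokines (-0.35 without the filter on dim probes), and 17 came under 2-fold in 1 or more settings. Of 367 named genes 331 were past 2-fold; with the mean of probes Cd4 turned to -0.10 and Itgam to 0.14, and 66 others came under 2-fold in 1 or more settings. Bounds of genes well above background on 1 array alone were not recomputed under the other settings. Whether a bound close to 2-fold, such as that of Esam, holds under them was not tested. No paired analysis was possible because each group has 1 array. Dim signals limit Wnt ligands, endothelial genes and red cell enzymes, of which many were not well above background on 1 or both arrays.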
